A study of Homo sapiens with 9 samples.

Results

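A set of 10 genes of cytokine signalling through STAT5 was followed in SKNO-1, a line grown from human acute myeloid leukaemia in which a t(8;21) translocation fuses RUNX1 to RUNX1T1 (AML1-ETO). The 10 genes were picked by symbol out of the 25680 in the count tables: the kinase JAK2, the transcription factors STAT5A and STAT5B, the feedback inhibitors CISH, SOCS1, SOCS2 and SOCS3, the kinases PIM1 and PIM2, and the repressor BCL6. All 10 passed the filter on low counts, which kept 14199 genes. Messenger RNA was sequenced from 9 samples in 3 groups of 3. The control group was labelled EV, letters that the labels do not explain, and the study describes a control shRNA. The other groups, SH2 and SH3, each carried a different shRNA against ASXL2, a chromatin regulator of the Polycomb-associated ASXL family. According to the study, SKNO-1 cells were kept in medium with the cytokine GM-CSF, and the samples were biological triplicates. The extraction text in the labels describes sorted bone marrow instead of a cell line. Every group had the replicate numbers 1, 13 and 25 in its labels, and the labels did not say what the numbers stand for. SKNO-1 is a single line, so all 9 samples share 1 donor genome.

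When a cytokine such as GM-CSF, IL-3 or erythropoietin binds its receptor, JAK2 bound to the receptor tails phosphorylates STAT5A and STAT5B, which pair, enter the nucleus and bind DNA. Among the best known STAT5 targets in blood cells are CISH and the SOCS genes, whose proteins switch the receptor or the kinase off again, and the PIM kinases, which promote survival and growth. BCL6, a repressor best known from germinal centre B cells, is commonly lowered by active STAT5. The messenger RNA level of STAT5 or JAK2 does not show whether the protein is phosphorylated, and phosphorylation was not measured here.

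STAT5 dimers bind the letters TTCNNNGAA, which read the same on both strands. RefSeq start-site windows of 300 bases, 250 before and 50 after the annotated start, were available on GRCh38.p14 for 9 of the 10 genes (16 windows). Of all 35116 windows, 2689 (7.66%) held at least 1 match and 7 (0.0199%) held 4 or more. CISH and BCL6 were the members with a match, with 4 in the window of CISH and 4 in 1 of the 2 windows of BCL6. These stretches are shown since CISH is the classical STAT5 target and BCL6 the member that STAT5 is known to lower. They are cut to at most 30 bases, were placed on GRCh37 by exact match, and run 5′ to 3′ on the minus strand of chromosome 3 with each match in capitals.
CISH, chr3:50649421-50649450: cgttTTCCTGGAAagTTCTTGGAAatctgt
CISH, chr3:50649307-50649336: ggTTCTAGGAAgacgctgcTTCCGGGAAgg
BCL6, chr3:187463271-187463289: tcaaaTTCCGAGAAttgag
BCL6, chr3:187463236-187463263: gaTTCTTAGAActggggTTCTTAGAAgt
BCL6, chr3:187463207-187463225: gaagtTTCTAGGAAaggcc
With the annotated start as base 0, the first letters of the CISH matches lay at -241, -230, -129 and -112, all before the start, while those of the BCL6 matches lay at -28, -5, 10 and 36, on both sides of it. No STAT5 binding was measured in these samples, so a match describes the letters only.

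On GRCh37 the genes counted were JAK2 (chr9:4984390-5129948, plus strand), STAT5A (chr17:40439565-40463961, plus), STAT5B (chr17:40351194-40440651, minus), CISH (chr3:50643920-50649205, minus) and SOCS1 (chr16:11348274-11350061, minus). The others were SOCS2 (chr12:93963590-93977263, plus), SOCS3 (chr17:76352859-76356158, minus), PIM1 (chr6:37137928-37143204, plus), PIM2 (chrX:48770459-48776301, minus) and BCL6 (chr3:187439165-187463513, minus). All 10 are protein-coding, and a count covers reads on the exons of 1 RefSeq transcript, untranslated regions included.

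Depth and identity of the samples were as follows. With 1 transcript row per gene, a sample held 27714431 to 35406063 counts, and 3 counts corresponded to 0.0847 to 0.108 CPM, the count relative to library size. This limit reflects counting error alone. Markers of a t(8;21) myeloid line were present in every sample: RUNX1 at 221 to 308 CPM, RUNX1T1 at 111 to 138, KIT at 237 to 419, MPO at 6368 to 10243 and CD33 at 88.2 to 112. CD34, also on that list, was nearly absent, with at most 10 counts. Of 12 markers of T, B, epithelial, endothelial and stromal cells, 6 were at 0 in all 9 samples, and their summed level was 0.328 to 3.85 CPM, the highest in SH3 number 1, where the endothelial gene VWF reached 3.64 CPM. The targeted gene ASXL2 lay at 67.9, 67.9 and 74.7 CPM in EV (numbers 1, 13 and 25), 30.4, 36.2 and 36.2 in SH2 and 26.9, 29.1 and 41.1 in SH3. Relative to the EV sample of the same number, 48.8% ± 4.26 (SD, n = 3) was left in SH2 and 45.8% ± 8.13 (SD, n = 3) in SH3. Samples with the same number deviated together across the groups, so each comparison of groups is given both as the study grouped the samples, without the number, and with the replicate number as a block. Without the block the ASXL2 difference itself missed the threshold over all genes (edgeR adjusted p = 0.808 for SH2 and 0.612 for SH3), and with the block it passed (0.00469 and 0.00407).

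The levels of the 10 genes spanned a wide range. Per kilobase of the GENCODE canonical transcript, which can differ from the RefSeq row counted, PIM1 was highest at 184 ± 51.0 CPM per kb (SD, n = 9). It was followed by STAT5A at 65.0 ± 6.40, SOCS2 at 52.4 ± 11.7, CISH at 43.1 ± 11.2 and STAT5B at 33.5 ± 4.64 CPM per kb. From STAT5A down to STAT5B the ranges of neighbours in this order overlapped, so the order between neighbours lay within their spread. STAT5A, at 55.8 to 74.9 CPM per kb, nevertheless lay wholly above STAT5B, at 27.5 to 40.7. PIM2 came next at 14.1 ± 1.64 CPM per kb, apart from its neighbours on both sides. SOCS1 at 4.45 ± 0.842, JAK2 at 3.15 ± 0.329 and SOCS3 at 2.79 ± 1.48 CPM per kb overlapped as well, and BCL6 was lowest at 0.332 ± 0.158. SOCS3 varied most, 4.57-fold between its lowest and highest sample, and STAT5A least, 1.34-fold.

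**Figure D1:**
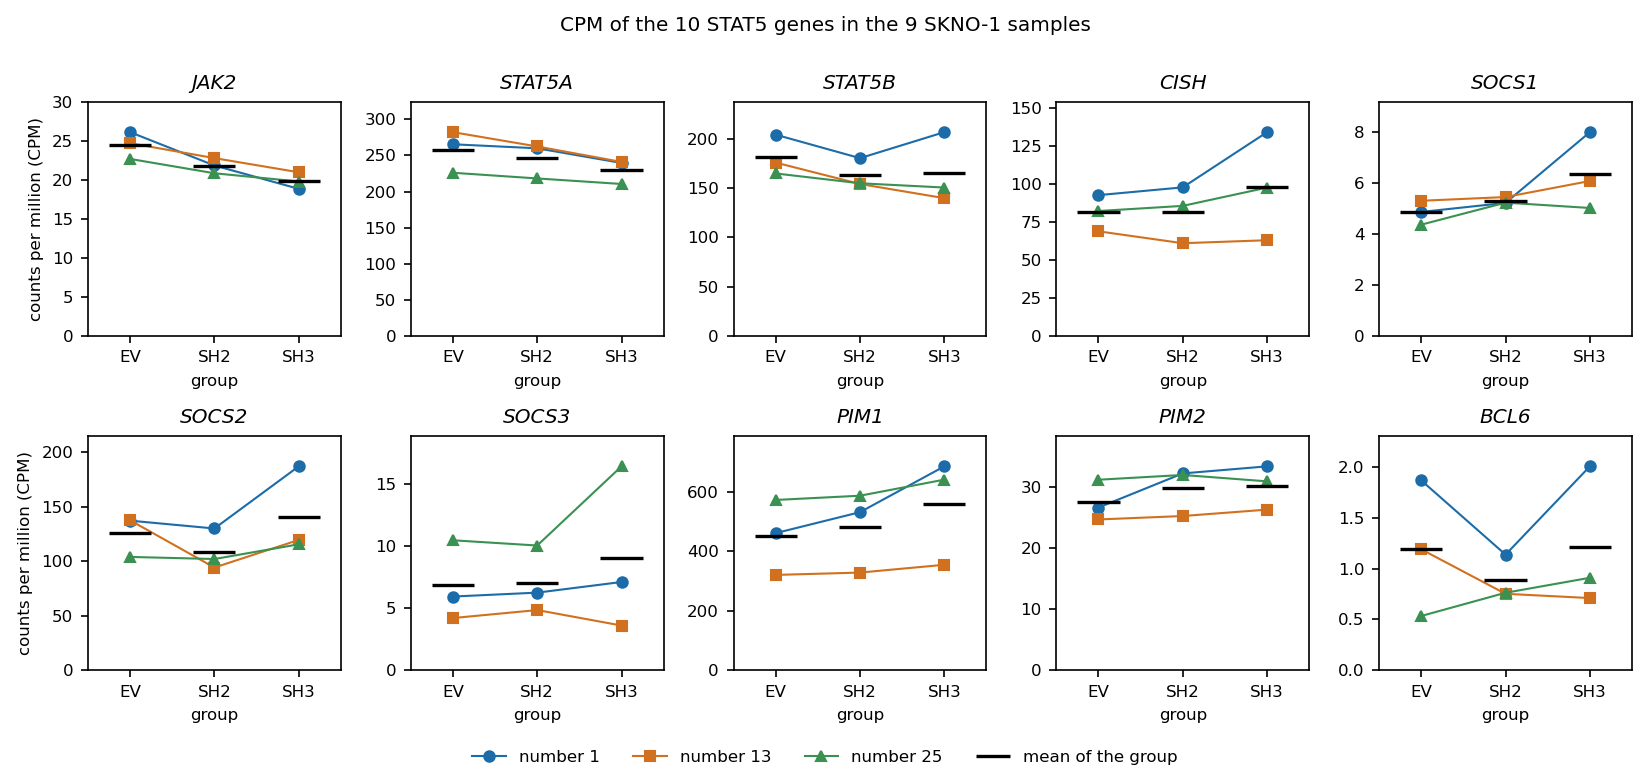
CPM (y axis, from 0, a scale of its own for each gene) of the 10 genes in the groups EV, SH2 and SH3 (x axis); lines join samples of the same replicate number and black bars are the means of 3. For PIM1 and SOCS3 the lines of numbers 13 and 25 stay apart in every group, and SH3 number 1 is the highest of the 9 samples for 7 of the 10 genes. The share of all genes highest in that sample was not computed.

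The first comparison asked whether lowering ASXL2 moved the STAT5 genes. No member passed an edgeR adjusted p of 0.05 in SH2 against EV, in SH3 against EV, in the mean of both shRNAs against EV or in SH3 against SH2. Without the block the same held for all genes (0.0% called in each of the 4 comparisons), while with the block 0.282%, 0.416%, 1.1% and 0.106% of all genes were called, in that order, and still 0 of the 10 members. At an unadjusted edgeR p under 0.05, the blocked fit held 0, 4, 2 and 3 of the 10 members. Beside them stood 2656, 2652, 2902 and 1693 genes in all, or 18.7%, 18.7%, 20.4% and 11.9%. The fit without the block held 0, 1, 1 and 0 members. There the counts over all genes were 762, 723, 942 and 293, or 5.37%, 5.09%, 6.63% and 2.06%. DESeq2 without the block called 25, 26, 56 and 11 genes and no member, and with the block 374, 474, 622 and 152 genes and 1 member, PIM1 in SH3. With the block, DESeq2 gave BCL6 an adjusted p only for both shRNAs against EV, so BCL6 could not be called in the other comparisons. The median log2 fold change of the members with the block was -0.04 for SH2 and 0.13 for SH3, beside 0.01 and 0.01 over all tested genes. By the edgeR test none of the differences below counts as a change, and they are given with their intervals to show which sizes the data could hold. P-values rest on triplicates of 1 line. Counts out of 6 pairs below set both shRNA samples of a number against the same EV sample, so the pairs are not independent. The share of all genes whose 6 pairs agree was not computed, so these counts only describe the samples.

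JAK2, the kinase that starts the pathway, had the smallest adjusted p of the members in the comparisons with EV. Its levels were 26.2, 24.8 and 22.7 CPM in EV (numbers 1, 13 and 25), 21.9, 22.8 and 20.9 in SH2, and 18.9, 21 and 19.8 in SH3. Each of the 6 shRNA samples lay below the EV sample of its number, and the SH3 samples all lay below all EV samples, whereas SH2 overlapped both. It was the 1 member of 10 whose EV and SH3 ranges did not overlap, as was the case for 10.1% of all genes. With the block, JAK2 differed by -0.23 on the log2 scale (SE 0.07, 95% interval -0.39 to -0.08) for both shRNAs against EV (edgeR adjusted p = 0.107). For SH3 alone the log2 difference was -0.30 (SE 0.08, edgeR adjusted p = 0.114), and without SH3 number 1 it was -0.25 (0.123).

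STAT5A, at 265, 282 and 226 CPM in EV, 260, 262 and 218 in SH2 and 240, 241 and 210 in SH3, also lay below its EV partner in 6 of 6 pairs. The steps were small beside the spread: number 25 was lowest in every group, and EV number 25 lay below SH3 numbers 1 and 13. The blocked log2 difference for both shRNAs was -0.11 (95% interval -0.23 to 0.01, edgeR adjusted p = 0.283). STAT5B stood at 204, 176 and 165 CPM in EV, 180, 154 and 155 in SH2 and 207, 140 and 150 in SH3, lower than EV in 5 of 6 pairs, the exception being SH3 number 1. Its blocked log2 difference was -0.15 (SE 0.07, edgeR adjusted p = 0.248), which became -0.20 with an adjusted p of 0.0298 when SH3 number 1 was left out. STAT5A and STAT5B are near-identical neighbours on chromosome 17 in opposite directions, and their gene models overlap by 1087 bases. The libraries were unstranded, so reads from the shared stretch cannot be told apart, and reads from sequence alike in both could be split between them.

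The feedback inhibitors varied more between samples than between groups. CISH, which binds activated cytokine receptors and blocks STAT5 docking, held 92.7, 68.8 and 82.2 CPM in EV, 97.8, 61.0 and 85.6 in SH2 and 134, 63.0 and 97.6 in SH3. Number 13 was lowest in each of the groups, and SH3 number 1 stood above all other samples. Against EV of the same number, SH3 differed by 0.53 on the log2 scale at number 1, by -0.13 at number 13 and by 0.25 at number 25. The blocked difference of SH2 from EV was -0.02 (edgeR adjusted p = 0.951), and its 95% interval ran from 0.843-fold to 1.16-fold. For SH3 it was 0.22 (SE 0.10, edgeR adjusted p = 0.277), and 0.08 without SH3 number 1. The gene model of CISH overlaps that of its neighbour MAPKAPK3 by 255 bases.

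SOCS1, an inhibitor of JAK kinases, was low, at 4.87, 5.31 and 4.37 CPM in EV, 5.22, 5.45 and 5.23 in SH2 and 8, 6.08 and 5.02 in SH3. All 6 pairs lay above EV, most of all SH3 number 1, but the groups overlapped. The blocked log2 difference of SH3 was 0.39 (95% interval 0.05 to 0.72, edgeR adjusted p = 0.214), and 0.19 without SH3 number 1. SOCS2, which restrains growth hormone and other STAT5-linked receptors, held 137, 137 and 104 CPM in EV, 130, 94.1 and 102 in SH2 and 187, 119.4 and 115 in SH3. SH2 lay below EV in 3 of 3 pairs, and SH3 lay above SH2 in 3 of 3. Between the shRNAs the blocked log2 difference was 0.35 (95% interval 0.10 to 0.60, edgeR adjusted p = 0.271), the smallest adjusted p of a member in that comparison, and it was 0.22 without SH3 number 1. SOCS2 shares 1955 bases of its gene model with the antisense RNA SOCS2-AS1, whose reads unstranded libraries do not separate.

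SOCS3, an inhibitor of JAKs best known downstream of STAT3 and G-CSF, was counted at 5.91, 4.18 and 10.4 CPM in EV, 6.23, 4.83 and 10.02 in SH2 and 7.08, 3.58 and 16.4 in SH3. In every group number 25 was highest and number 13 lowest, and the groups overlapped. Its blocked log2 difference from EV was 0.07 in SH2 and 0.29 in SH3, with a 95% interval of -0.12 to 0.69 in SH3 (edgeR adjusted p = 0.857 and 0.417).

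PIM1 and PIM2 are constitutively active serine/threonine kinases, so their activity depends largely on their level. PIM1 held 460, 320 and 572 CPM in EV, 531, 328 and 586 in SH2 and 685, 354 and 640 in SH3, above EV in 6 of 6 pairs although the groups overlapped. With the block, SH3 exceeded EV by 0.29 on the log2 scale (SE 0.09, 95% interval 0.10 to 0.49, edgeR adjusted p = 0.135), and by 0.18 without SH3 number 1. Without the block the adjusted p was 0.976, while DESeq2 with the block gave 0.0344, the single setting that called PIM1. PIM2 held 26.7, 24.7 and 31.2 CPM in EV, 32.2, 25.3 and 32.0 in SH2 and 33.4, 26.3 and 30.9 in SH3, with a blocked log2 difference of 0.12 for both shRNAs (edgeR adjusted p = 0.346).

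BCL6 had the fewest counts of the 10 members, 16 to 68 per sample, which is low but above the limit of 3 counts. It was present at 1.87, 1.19 and 0.534 CPM in EV, 1.14, 0.752 and 0.762 in SH2 and 2.01, 0.710 and 0.910 in SH3. Of the 6 pairs, 3 lay above EV and 3 below, and the interval of the blocked log2 difference for both shRNAs ran from -0.75 to 0.37 (edgeR adjusted p = 0.707).

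**Figure D2:**
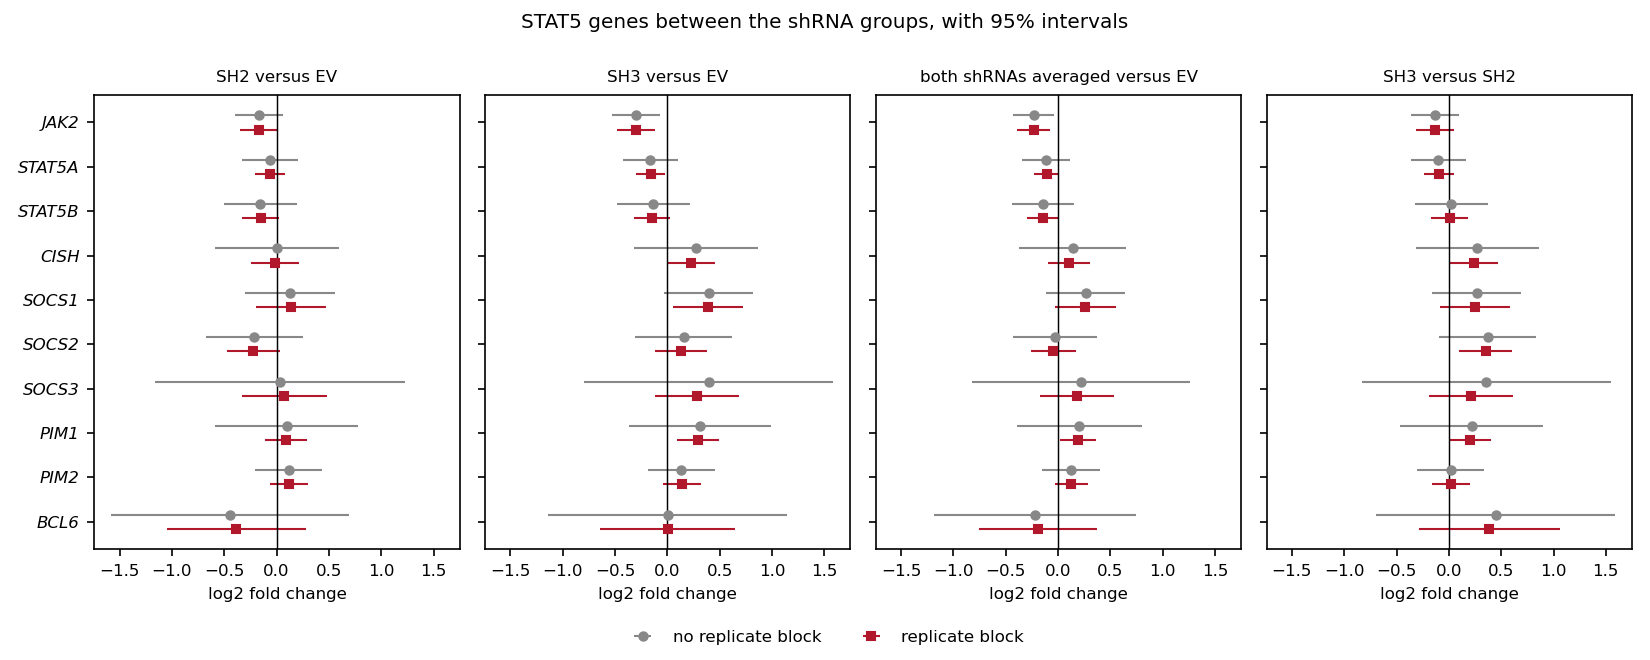
Log2 fold change (x axis) of the 10 genes (y axis) in the 4 comparisons of groups, with 95% intervals, without the replicate block (grey circles) and with it (red squares). The block narrows the intervals, most for SOCS3 and PIM1, and no gene passes an adjusted p of 0.05 in either fit.

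The second comparison was between the replicate numbers, with the group as a term in the fit. Number 1 against the log2-scale mean of 13 and 25 called 5 of the 10 members, all higher than that mean. The comparison called 46.3% of all genes (24.1% higher and 22.2% lower). Without regard to direction, the share of members was thus near that of all genes. By direction, 5 of the 10 members were higher and 0 lower, beside 24.1% and 22.2% of all genes. Each of the 5 was above the geometric mean of 13 and 25 in 3 of 3 groups, the same samples that the fit used. BCL6 was 1.04 higher on the log2 scale (SE 0.24, edgeR adjusted p = 0.00651), at 1.14 to 2.01 CPM in number 1 against 0.534 to 1.19 in the other numbers, ranges that overlap. CISH was higher by 0.51 (SE 0.09, 0.00171), with 92.7 to 134 CPM in number 1, 61.0 to 68.8 in number 13 and 82.2 to 97.6 in number 25. SOCS2 was higher by 0.43 (SE 0.10, edgeR adjusted p = 0.00550), STAT5B by 0.33 (SE 0.07, 0.00335) and PIM1 by 0.31 (SE 0.08, 0.00911). PIM1 in number 1 lay below number 25 in EV (460 against 572 CPM) and SH2 (531 against 586) and above it in SH3 (685 against 640). Number 13 was the lowest for PIM1 in every group, at 320 to 354 CPM. All 5 members were called again in each of the 15 alternatives, although the PIM1 difference was 0.19 without SH3 number 1. JAK2 (0.01), STAT5A (0.09), PIM2 (0.12), SOCS1 (0.18, and -0.0094 without SH3 number 1) and SOCS3 (-0.16) did not pass.

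Number 25 against 13 called 5.87% of all genes (2.77% higher, 3.1% lower) and 4 of the 10 members, 3 of them higher and 1 lower. SOCS3 was higher in number 25 by 1.52 on the log2 scale, or 2.87-fold (SE 0.18, edgeR adjusted p = 0.00326). Its samples fell into 3 separate ranges, 3.58 to 4.83 CPM in number 13, 5.91 to 7.08 in number 1 and 10.02 to 16.4 in number 25. PIM1 was higher by 0.84, or 1.79-fold (SE 0.09, edgeR adjusted p = 0.00222), with 320 to 354 CPM in number 13 against 572 to 640 in number 25. The PIM1 difference hardly varied between the groups, from 0.84 to 0.85 on the log2 scale within EV, SH2 and SH3. CISH was higher by 0.45, or 1.37-fold (SE 0.10, edgeR adjusted p = 0.0328), and STAT5A lower by 0.26 on the log2 scale (log2 fold change -0.26, SE 0.06, adjusted p = 0.0413). The direction of each of these 4 was the same in 3 of 3 groups, the same samples that the fit used, so this is no separate support.

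SOCS3 and PIM1 passed in each of the 15 alternatives, but the other calls between numbers 25 and 13 did not hold throughout. CISH missed the threshold without the group term (edgeR adjusted p = 0.100) and without EV 25, SH2 13, SH2 25, SH3 13 or SH3 25 (0.0651 to 0.170). STAT5A missed it without the group term (edgeR adjusted p = 0.117) and without EV 1, EV 13, EV 25, SH2 13, SH2 25 or SH3 25 (0.0518 to 0.237). PIM2, higher by 0.31, lay just outside (edgeR adjusted p = 0.0560) and passed without SH3 1 (0.00817), without EV 1 (0.0468) and with an offset for transcript length (0.0377). The CPM ranges of numbers 25 and 13 did not overlap for 6 of the 10 members, CISH, SOCS1, SOCS3, PIM1, PIM2 and STAT5A, and for 31.6% of all genes. SOCS1 and STAT5A were the lower in number 25 among these 6. SOCS2, JAK2, STAT5B and BCL6 overlapped.

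**Figure D3:**
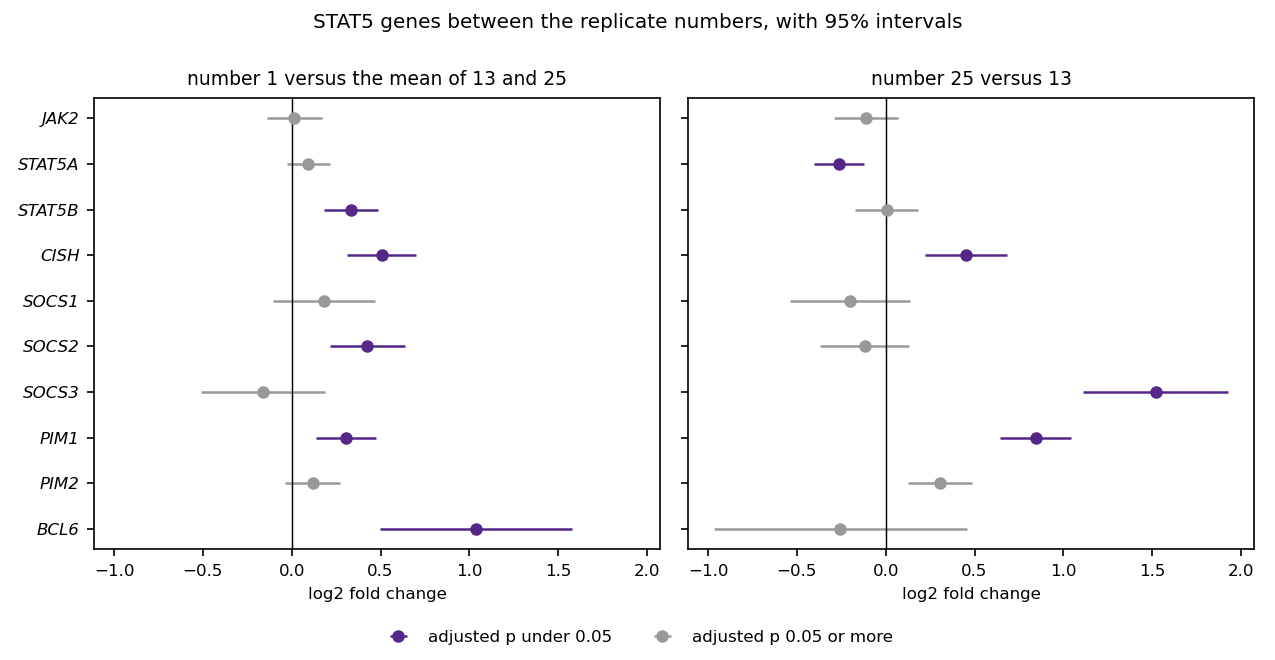
Log2 fold change (x axis) of the 10 genes (y axis) between replicate numbers with 95% intervals, from the fit with group and number; purple points passed an adjusted p of 0.05 and grey points did not. SOCS3 at 1.52 and PIM1 at 0.84 stand out between numbers 25 and 13.

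**Figure D4:**
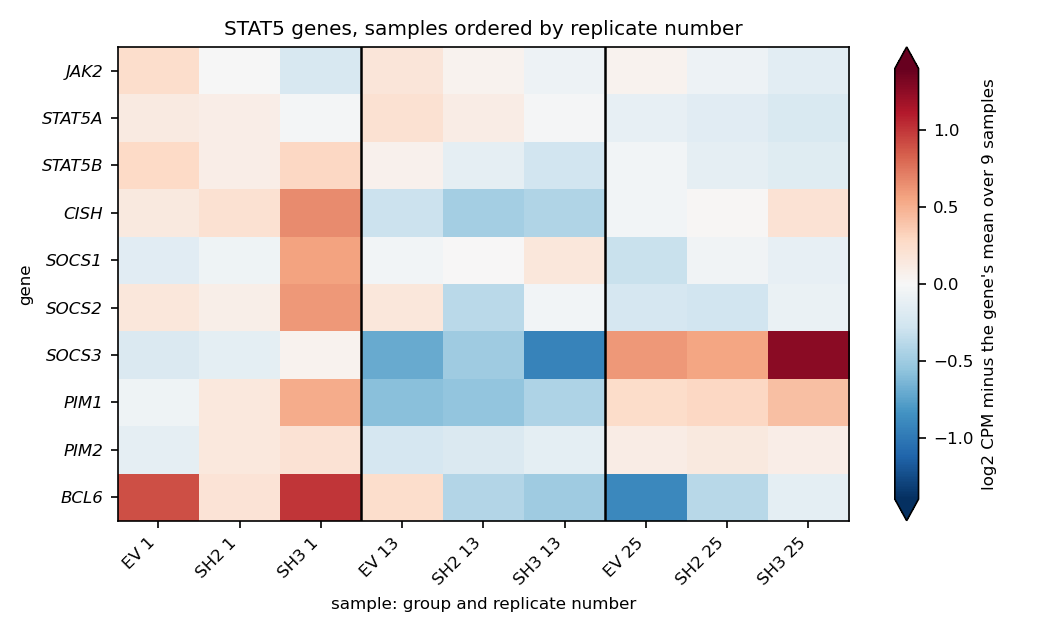
Log2 CPM minus the gene's mean over the 9 samples (colour; red above, blue below) for the 10 genes (y axis), samples ordered by replicate number (x axis). SOCS3, PIM1 and CISH are blue in all samples of number 13, and most genes are reddest in SH3 number 1.

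SH3 number 1 held the highest level of CISH, SOCS1, SOCS2, PIM1, PIM2, STAT5B and BCL6 and the lowest of JAK2. The share of all genes with their highest level in this sample was not computed, so this only describes the sample. When SH3 number 1 was left out of the blocked fit, the number of genes called went from 40 to 1604 for SH2, from 59 to 368 for SH3 and from 156 to 1755 for both shRNAs. Without it the blocked differences of SH3 from EV were smaller for CISH, SOCS1 and PIM1, and STAT5B was called for both shRNAs, as given above. The part of the VWF level that this sample also showed was not tested.

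Receptors feeding STAT5 were read from a list of 16, of which 9 were tested. Of the untested ones, CSF2RA, the alpha chain of the GM-CSF receptor, had at most 1 count in any sample, and IL3RA and CRLF2 had 0. All 3 lie in the pseudoautosomal region shared by the X and Y chromosomes, where none of the 19 genes wholly inside it exceeded 2 counts in any sample, so the GM-CSF alpha chain could not be read from these tables. CSF2RB, the beta chain shared by the GM-CSF, IL-3 and IL-5 receptors, lies elsewhere and held 99.5 to 155 CPM. IL2RB and PRLR (at most 5 counts each) and GHR (0) were among those also too low to test. With the block, CSF3R, the G-CSF receptor, was lower for both shRNAs by 0.43 on the log2 scale (log2 fold change -0.43, SE 0.08, edgeR adjusted p = 0.0385, and 0.806 without the block). CSF3R lay at 282, 219 and 174 CPM in EV, 234, 141 and 124 in SH2 and 207, 152 and 147 in SH3, below EV at each number. Number 1 was higher for 7 of the 9 receptors and lower for 0, beside 24.1% and 22.2% of all genes. Among the 7 were IL2RG (0.71), CSF3R (0.61), IL5RA (0.57) and FLT3 (0.54). None of the 9 was called between 25 and 13.

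Of 9 other kinases and STAT factors, all tested, JAK1 was lower with the block in SH3 (log2 fold change -0.38, SE 0.07, edgeR adjusted p = 0.0409, and 0.930 without the block) and for both shRNAs (-0.33, SE 0.06, 0.0379, and 0.623 without the block). JAK1, a kinase paired with many cytokine receptors, held 156, 148 and 134 CPM in EV, 124, 123 and 116 in SH2 and 117, 108 and 111 in SH3. Its EV and SH3 ranges did not overlap, as was the case for 10.1% of all genes. For SH2, which also lay below EV, that share was not computed. STAT4 was lower in SH2 with the block (log2 fold change -0.76, SE 0.12, edgeR adjusted p = 0.0428, and 0.808 without the block), at 15, 15 and 11.2 CPM against 23.4, 25.7 and 20.4 in EV. The calls of JAK1, STAT4 and CSF3R rested on the full set of samples. When each sample was left out in turn under the block, STAT4 passed in 2 of 9 fits, JAK1 in 1 of 9 for SH3 and 2 of 9 for both shRNAs, and CSF3R in 3 of 9, in each case when an SH3 sample was dropped. Summing all RefSeq rows of a gene or adding a length offset to the block also lost each of these calls (highest edgeR adjusted p 0.0789 for STAT4, 0.0624 for JAK1 and 0.0619 for CSF3R). Between the numbers, 4 of the 9 were higher in number 1, beside 24.1% of all genes, among them JAK3 (0.78), STAT6 (0.76) and STAT2 (0.66), and 0 of 9 were called between 25 and 13.

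Further negative regulators (SOCS4 to SOCS7, phosphatases, PIAS proteins, SH2B3, CBL and CBLB) numbered 16, all tested, and 0 were called between the groups. In number 1, 6 of the 16 were higher and 3 lower than in the other numbers, beside 24.1% and 22.2% of all genes, for example the phosphatase PTPRC (0.75), the ubiquitin ligase CBLB (0.74) and SOCS5 (0.37) on one side and the adaptor SH2B3 (-0.38) on the other. None was called between 25 and 13.

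Of 12 other genes often listed as STAT5 targets, 11 were tested, and IGF1, with at most 2 counts, was not. None was called between the groups. Against the log2-scale mean of 13 and 25, number 1 had 5 higher and 2 lower of the 11, beside 24.1% and 22.2% of all genes. Examples were EGR1 (0.44), CCND2 (0.35), MYC (0.24) and CCND3 (-0.31). The last 3 were not called in every fit that left out 1 sample, with edgeR adjusted p of up to 0.0993, 0.0998 and 0.0624. EGR1 in number 1 lay above number 13 but below number 25 in every group. MYC in number 1 lay below number 25 in EV (750 against 772 CPM) and SH3 (720 against 794) and above it in SH2 (842 against 785). Between numbers 25 and 13 this list gave 4 higher and 0 lower of the 11, beside 2.77% and 3.1% of all genes. EGR1, an immediate early transcription factor that many growth signals induce, differed most, by 3.96 on the log2 scale or 15.5-fold (SE 0.13, edgeR adjusted p = 1.21e-07), and passed in each alternative. It was counted at 51.8, 11.7 and 163 CPM in EV, 55.1, 10.6 and 140 in SH2 and 68.5, 10.2 and 209 in SH3, the same order of numbers as SOCS3. OSM, a cytokine gene, was higher by 0.78 (SE 0.11, edgeR adjusted p = 0.00432, and 0.0524 without EV 25), MYC by 0.53 (SE 0.08, 0.00682, and up to 0.0562 with 1 sample left out) and GFI1 by 0.32 (SE 0.07, 0.0239, and up to 0.135 with 1 sample left out).

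Likeness of pattern was taken as Pearson's r of log2 CPM over the 9 samples, which share group and number, and is given as a description. Of all tested genes, MVK (0.991), NET1 (0.990) and CFD (0.985) followed CISH most closely. For SOCS3, the other member with the largest spread, these were ACLY (0.983), FOS (0.977) and BICD2 (0.967). Within the 10 members, CISH went with PIM1 (0.868) and PIM2 (0.796), SOCS3 went with PIM1 (0.818), and SOCS3 ran opposite to STAT5A (-0.809).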

How the data were processed

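The authors deposited raw counts per RefSeq transcript for each of the 9 samples on hg19 (GRCh37); the submitters' processing notes name STAR, featureCounts and DESeq2, with versions not given in the sources used here. Each deposited table had 48104 rows and no normalization, with totals of 62079356 to 79254366 counts over all rows. Since rows of a gene share reads (9509 symbols had several rows), the row with the highest total stood for each symbol; an isoform shift could move that value. Groups came from the sample titles.

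Counts were tested with edgeR 4.0.16 in R 4.3.3 (quasi-likelihood F test; TMM scaling; filterByExpr at its defaults, 10 counts in enough samples and 15 in total), with Benjamini-Hochberg adjustment over 14199 genes and a threshold of 0.05. The fit by group left 6 residual degrees of freedom and the fit by group and number 4. The number was used as a block because same-numbered samples deviated together from their group means (log2 CPM, 9 pairs, mean r 0.598, lowest 0.398), although the labels do not say what a number is. Other pairs had a mean r of -0.291. Deviations within a group cancel out, so this negative value follows from the same-numbered pairs and is no separate support. Comparisons of numbers used the fit with both terms. CPM values used TMM-scaled totals, and SE is the log2 fold change divided by the square root of F. The fits were tested on simulated counts. Alternatives were DESeq2 1.42.0, DESeq2 size factors, no filter, summed rows, a transcript length offset (12338 genes), no group term and leaving out each sample; those joining the block with another choice, other than the length offset, were added after seeing the data, as was the count of pseudoautosomal genes. Named genes were the 10 members, ASXL2, up to 4 called genes by smallest p from each pathway list and comparison, and the 3 genes most correlated with CISH and with the most variable other member. The members and lists were chosen with earlier results of these data known. Promoter windows and their RefSeq annotation are from GRCh38.p14 and gene lengths and overlaps from GENCODE on GRCh37. Some genes of the lists are not reported here. Figures were drawn with matplotlib.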

Additional observations from a re-analysis of the deposited data

How the results depend on the processing

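Of 1120 member values recomputed for the comparisons of groups, 2 crossed the threshold: PIM1 in SH3 under DESeq2 with the replicate block, which made the count of members called 1 in place of 0, and STAT5B for both shRNAs without SH3 number 1 with the replicate block, so that leaving out 1 sample gave 0 to 1 members. A further 65 values changed sign with neither value called. BCL6 values to which DESeq2 with the block gave no adjusted p were taken as not called. Of 300 values for the numbers, 13 lost and 3 gained a call, 9 uncalled values changed sign, and none reversed. Members called between 25 and 13 fell from 4 to 2 without a group term and ranged from 2 to 5 when 1 sample was left out. With all 9 samples in edgeR, the replicate block changed the call of none of the 10 members.

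Counts over all genes moved far more. For SH2, SH3, both shRNAs and SH3 against SH2, 0 genes were called without the block, 40, 59, 156 and 15 with it and 374, 474, 622 and 152 by DESeq2 with it. Joined to the block, a length offset gave 6, 21, 13 and 7, summed rows 4, 26, 38 and 6, and no filter 307, 410, 563 and 162. Leaving out 1 sample under the block gave 0 to 1604, 1 to 368, 2 to 1755 and 0 to 257. Between 25 and 13, 833 became 304 without the group term and 50 (without EV 25) to 2750 (without SH3 1) with 1 sample left out. For number 1, leaving out 1 sample gave 4813 to 6282 and the other alternatives 5200 to 6624. The cause was not tested. With 1 sample left out of a group of 3, the remaining pair was taken to vary like the other groups. Depth limited BCL6 most, with 16 counts in EV 25.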
